A study of Mus musculus with 7 samples.

Results

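The cytosolic RNA sensing genes described here are Ddx58, Ifih1, Dhx58, Rnf135, Mavs, Tbk1, Irf3, Eif2ak2, Adar and Zc3hav1. They are 10 of the 55364 genes counted in CD4 T cells sorted from mouse lung tumours. They were chosen by their place in the RIG-I and MDA5 pathway, with the Cre against Control values of these libraries already known, among them that of Ddx58. Their differences between the groups are therefore given as a description, with counts of calls and no test read from them. All 10 symbols were found in the count table, and counts were summed over the 3′ regions of each gene.

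Both groups were C57BL/6 mice over 8 weeks old with orthotopic lung tumours, a loxP-flanked I-Ab allele (I-AbF/F) and tamoxifen. I-Ab encodes an MHC class II chain. Control mice (5 libraries) had no Cre. Cre mice (2 libraries, I-AbF/FCol1a2-cre) carried Cre under the Col1a2 promoter, which is active in fibroblasts, so the sorted T cells were not the cells in which deletion was intended. The libraries are biological replicates by the series design, and each was made from the RNA of cells sorted as CD45+CD3+CD4+. In such bulk samples fewer cells of a type and less RNA per cell cannot be told apart.

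RIG-I, encoded by Ddx58, and MDA5, encoded by Ifih1, are helicases that bind double-stranded or uncapped RNA in the cytosol. They pass the signal to the adaptor MAVS on mitochondria, from where the kinase TBK1 and the transcription factor IRF3 switch on type I interferon. Interferon in turn raises the sensors and a set of effectors, including PKR, ADAR1 and ZAP, in most cell types, T cells among them. ADAR1 edits adenosines in cellular double-stranded RNA and so keeps MDA5 and PKR from reacting to it.

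Total counts ran from 1484655 to 1724346 in Control and were 1929899 and 1449739 in Cre. Of the 9854 genes tested across the groups, 1.14% to 16.1% had no count in a Control library, against 25.01% in Cre replicate 1 and 33.6% in Cre replicate 2. A count of 0 allows up to 3 counts, or 0.888 CPM (the count scaled to a library total of 1000000) over both Cre libraries, and such limits cover counting error only. The 15 T cell markers together reached 6788 to 9432 CPM in Control libraries, 8750 CPM in Cre replicate 1 and 8133 CPM in replicate 2, and none was at 0 in both Cre libraries. Cd4 had 202.7 to 454 CPM in Control libraries and 379 and 391 CPM in the 2 Cre libraries, while the sort marker Cd3e had 34.4 to 235 CPM in Control libraries, 60.1 CPM in Cre replicate 1 and 2.07 CPM in Cre replicate 2. Cd8a had at most 1 count in any library. The 11 fibroblast markers together reached 219.6 to 831 CPM in Control libraries, against 346 and 65.5 CPM in the 2 Cre libraries. Of them Col1a1, Col1a2 and Bgn lay, in each Cre library, below all 5 Control libraries, Postn was at 0 there, and Pdgfrb was at 0 in every library. The 12 macrophage and monocyte markers together reached 164 to 377 CPM in Control libraries, against 412 and 318 CPM in the 2 Cre libraries, with 8 of the 12, including Lyz2 and Csf1r, at 0 in both Cre libraries. Of these 8, only Lyz2 had a count in every Control library, and Adgre1 and C1qc were at 0 in all of them. Dendritic cell, neutrophil and B cell markers summed to at most 11.9 CPM in any library. The 6 CD8 T cell and NK cell markers together reached 0.614 to 30.3 CPM in Control libraries, against 5.18 and 0 CPM in Cre. The 7 epithelial and tumour markers reached 0.614 to 25.2 CPM in Control libraries, against 58.0 and 1.38 CPM in Cre replicates 1 and 2. The 5 endothelial markers reached 21.5 to 68.7 CPM in Control libraries, against 66.3 and 6.21 CPM in Cre replicates 1 and 2. The part of the fibroblast and other non-T cell markers and of the genes without counts in the results below was not tested.

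The promoters of the members were searched for GAAA, any 2 bases and GAAA again, on both strands. These letters are the core of the interferon-stimulated response element, through which interferon acts on its target genes. Of the 10 genes, 9 had a promoter window in RefSeq (GRCm38.p6, from 250 bases before to 50 after the start), and Dhx58 had none. The letters stood in 3 of the 9, Ddx58, Ifih1 and Eif2ak2, against 3.99% of all 27025 genes with a window. With 1 base between the 2 repeats, a spacing added after the sequences were seen, they stood in Ddx58 and in 1 of the 3 windows of Adar, against 3.70% of all genes. The sites with either of these 2 spacings are shown. Relative to the transcript start, they lie 32 to 41 bases after it in Ifih1 and 18 to 27 after it in Eif2ak2. In Adar the site lies 28 to 36 bases after the start. In Ddx58 the first lies 2 to 11 bases after the start and the one with 1 base between at −60 to −52, before it. Each line gives 30 bases 5′ to 3′ on the gene's strand, with the match in capitals; a match on the other strand reads as TTTC on this one.
Ifih1, chr2:62646206-62646235, minus strand: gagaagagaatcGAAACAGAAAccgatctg
Eif2ak2, chr17:78882535-78882564, minus strand: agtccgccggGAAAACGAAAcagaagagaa
Ddx58, chr4:40239804-40239833, minus strand, match on the other strand: cctgaggcagTTTCGATTTCctatggccag
Ddx58, chr4:40239866-40239895, minus strand, 1 base between: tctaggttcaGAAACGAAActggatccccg
Adar, chr3:89730736-89730765, plus strand, 1 base between: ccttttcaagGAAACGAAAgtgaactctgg
No binding was measured, so these are descriptions of sequence only. The other windows, those of Rnf135, Mavs, Tbk1, Irf3 and Zc3hav1, held neither spacing.

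Ddx58 (ENSMUSG00000040296) encodes RIG-I (mm10, chromosome 4, minus strand, 40203773 to 40239828). Control replicates 1 to 5 gave 110, 111, 152, 130 and 95 counts for it, and Cre replicates 1 and 2 gave 5 and 2. Both Cre libraries lay below every Control library, and the 5 Control libraries lay close together. The level was 73.4 ± 13.2 CPM in Control (SD, n = 5) and 1.99 ± 0.856 CPM in Cre (n = 2). Pooled over libraries, the level was 35.4-fold lower in Cre, with an exact 95% interval of 17.1 to 88.5 for counting error alone. The fitted log2 fold change was −5.13 ± 1.29 (SE), and it stayed between −5.64 and −4.74 under every alternative run.

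The steady total of Ddx58 in Control hid a large difference in which part of the transcript was counted. The region at the end of the full-length transcript (chromosome 4, 40204600 to 40205809, with 961 of its 1210 bases in the annotated 3′ UTR) had 87, 0, 127, 65 and 35 counts in Control, against 3 and 0 in Cre. It thus held 83.6% of the gene's counts in Control replicate 3 and none of the 111 counts in Control replicate 2 (exact 95% upper limit 3.27%). There, 83 counts fell in an intronic region at 40207936 to 40208184 and 28 in a region past the full-length end at 40203524 to 40203776. In Control replicate 5, 43 of 95 counts fell in another intronic region, at 40226810 to 40227058. The regions are those in the authors' table, and each of these 3 shorter ones begins at, or right after, the end of an annotated noncoding transcript of the gene. Counted from the region of highest total alone, the log2 fold change of Ddx58 was −5.44.

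**Figure D1:**
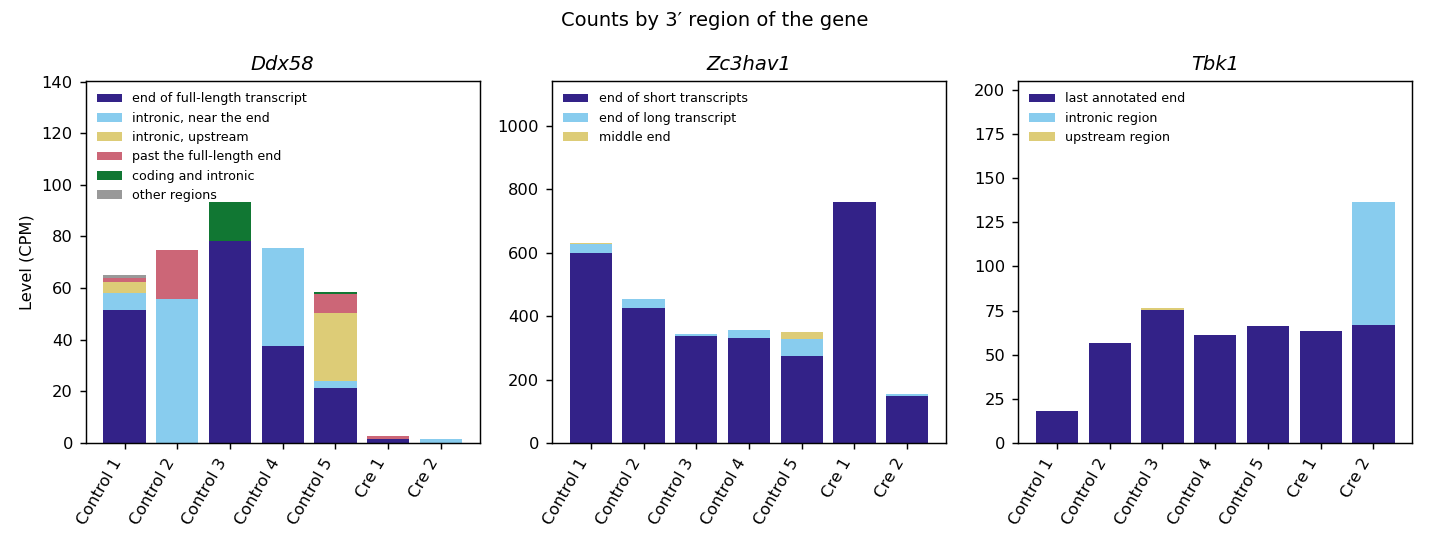
Level in CPM by 3′ region of Ddx58, Zc3hav1 and Tbk1 in each of the 7 libraries, as stacked bars that start at 0. Ddx58 drew on different regions in different Control libraries, Zc3hav1 mostly on the end of its short transcripts, and Tbk1 on an intronic region in Cre replicate 2, where 101 of 198 counts fell.

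Ifih1 (ENSMUSG00000026896; chromosome 2, minus strand, 62595798 to 62646255), which encodes MDA5, had 6, 28, 59, 0 and 0 counts in Control and 0 in both Cre libraries. The groups overlap at 0, where 2 Control libraries also lie. Its mean was 11.7 ± 15.8 CPM in Control. With that mean taken as exact and the limit of 3 counts over both Cre libraries, Cre was at least 13.2-fold lower. Without Control replicate 3, the highest, that limit was 6.31-fold. All of its counts came from 1 region, in which 2111 of 2360 bases are 3′ UTR. Among the 1998 tested genes whose Control mean lay within a factor of 1.5 of that of Ifih1, 28.9% were at 0 in both Cre libraries. Zero counts at this level were thus common in the Cre libraries.

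Dhx58 (ENSMUSG00000017830; chromosome 11, minus strand, 100694884 to 100704271) encodes LGP2, a relative of RIG-I and MDA5 without signalling domains that tunes both. It had 16 counts in Control replicate 1 and 0 in the other 6 libraries, and it was not tested. Rnf135 (ENSMUSG00000020707; chromosome 11, plus strand, 80183851 to 80199757) encodes Riplet, the ubiquitin ligase that activates RIG-I. It had 15, 36, 0, 0 and 42 counts in Control and 0 in both Cre libraries, so the groups overlap at 0. Its Control mean was 11.8 ± 12.6 CPM. With that mean taken as exact, the limit for 0 counts in both Cre libraries put Cre at least 13.3-fold lower. That value covers counting error in Cre only. With 1 Control library left out at a time it ran from 9.34-fold, without Control replicate 5, to 16.6-fold. Of 2001 tested genes of like Control mean, 28.8% were at 0 in both Cre libraries.

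Mavs (ENSMUSG00000037523; chromosome 2, plus strand, 131234063 to 131248025), the mitochondrial adaptor that both sensors need, had 6 counts in Control replicate 1 and 0 in the other 6 libraries. It was not tested, and its level was not detectable at this depth in the 6 libraries. Control replicate 1 was the library in which all 10 members had a count, and it had no count for 1.14% of tested genes, against 12.3% to 16.1% in the other Control libraries. The number of members with a count was 8, 7, 5 and 7 in Control replicates 2 to 5 and 5 in each Cre library. Control replicate 4, with the fewest members counted, was also the Control library with the most tested genes at 0. The part of this difference in detection in the zeros of the rarer members was not tested.

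Tbk1 (ENSMUSG00000020115; chromosome 10, minus strand, 121546455 to 121586787), the kinase that activates IRF3, had 31, 84, 124, 105 and 108 counts in Control, against 122 and 198 in Cre. Cre replicate 2 lay above every Control library and Cre replicate 1 within their range. The level was 55.7 ± 22.1 CPM in Control against 99.9 ± 51.9 CPM in Cre, with a fitted log2 fold change of 0.86 ± 0.83. In Cre replicate 2, 101 counts came from an intronic region at 121561923 to 121562171 that had no count in the other 6 libraries. At the last annotated end (121546206 to 121547188, 734 of 983 bases in the 3′ UTR) the level was 55.4 ± 21.8 CPM in Control against 65.1 ± 2.61 CPM in Cre. The fitted value from that region alone was 0.22, and without Cre replicate 2 it was 0.25.

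Irf3 (ENSMUSG00000003184; chromosome 7, plus strand, 44997648 to 45002848) encodes the transcription factor at the end of the pathway. It had 46, 156, 39, 0 and 115 counts in Control, against 0 and 97 in Cre. Zero and high counts thus occurred in both groups. The means were 45.4 ± 42.0 CPM in Control against 33.5 ± 47.3 CPM in Cre, and the fitted log2 fold change was −0.44 ± 1.94. It moved to −9.22 without Cre replicate 2, to 0.59 without Cre replicate 1 and to 0.14 without Control replicate 2, so no direction can be given. A counted region of Scaf1 on the opposite strand, with 88 counts over all libraries, overlaps that of Irf3, and counts of the pair cannot be separated because the use of strand is not given in the sources used here.

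Adar (ENSMUSG00000027951; chromosome 3, plus strand, 89715022 to 89753446), the RNA editing enzyme, had 124, 140, 229, 142 and 73 counts in Control, against 2 and 0 in Cre. Both Cre libraries lay below every Control library. The level was 87.2 ± 35.1 CPM in Control against 0.518 ± 0.733 CPM in Cre, and the pooled level was 147-fold lower in Cre, with an exact 95% counting interval of 40.5 to 1215. The fitted log2 fold change was −7.10 ± 1.52, and it ranged from −10.12 without Cre replicate 1 to −6.25 without Cre replicate 2. Of the gene's counts, 99.6% fell between 89751176 and 89753695, a region with 2271 of 2520 bases in the 3′ UTR and at which all 5 coding transcripts end. The long, interferon-induced form of the enzyme and its constitutive short form can therefore not be told apart.

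Eif2ak2 (ENSMUSG00000024079; chromosome 17, minus strand, 78852564 to 78882573) encodes PKR, the kinase that stops translation when it meets double-stranded RNA. It had 112, 63, 34, 56 and 104 counts in Control, against 108 and 223 in Cre. Cre replicate 2 lay above every Control library and Cre replicate 1 within their range. The means were 45.2 ± 19.7 CPM in Control against 104.9 ± 69.2 CPM in Cre, with a fitted log2 fold change of 1.20 ± 0.88 that dropped to 0.35 without Cre replicate 2. The promoter window of Eif2ak2 held the response element letters shown above, and their part in its level was not tested.

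Zc3hav1 (ENSMUSG00000029826; chromosome 6, minus strand, 38305286 to 38354603) encodes ZAP, which binds CG-rich viral RNA and has it degraded. It was the most abundant member, with 1061, 672, 560, 617 and 571 counts in Control, against 1468 and 225 in Cre. One Cre library lay above and the other below every Control library. The means were 427 ± 121 and 458 ± 428 CPM, and the fitted log2 fold change of 0.11 ± 0.54 moved to −1.46 without Cre replicate 1 and to 0.87 without Cre replicate 2. The sign also turned with upper-quartile factors (−0.03), so no direction can be given. Zc3hav1 held 46.8% to 69.5% of the summed CPM of the 10 genes in Control, and 86.1% and 30.2% in the Cre libraries. A summed level of the pathway would thus follow this gene.

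The regions of Zc3hav1 separate its forms. The long protein, ZAPL, carries a PARP-like domain and a lipid anchor that the short form, ZAPS, lacks, and ZAPS arises by the use of an earlier polyadenylation site. The end of the short transcripts (38315419 to 38316316, 649 of 898 bases in the 3′ UTR) had 1012, 631, 548, 569 and 446 counts in Control, against 1468 and 217 in Cre. The end of the long transcript (38305037 to 38307187, 1902 of 2151 bases in the 3′ UTR) had 43, 41, 12, 48 and 87 counts in Control, against 0 and 8 in Cre. The short end thus held 91.5 ± 7.76% of the gene's counts in Control (n = 5), with 78.1% in Control replicate 5 as the lowest, and 100% and 96.4% in the Cre libraries. The long end held 7.06 ± 5.04% in Control and 0% (0 of 1468, exact 95% upper limit 0.251%) and 3.56% in Cre. The groups overlap in both shares, which were chosen after their values were seen and were not tested. In level, the long end stood at 28.4 ± 16.4 CPM in Control, with 0 CPM in Cre replicate 1 and 5.52 CPM in replicate 2, both below the lowest Control value of 7.38 CPM.

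**Figure D2:**
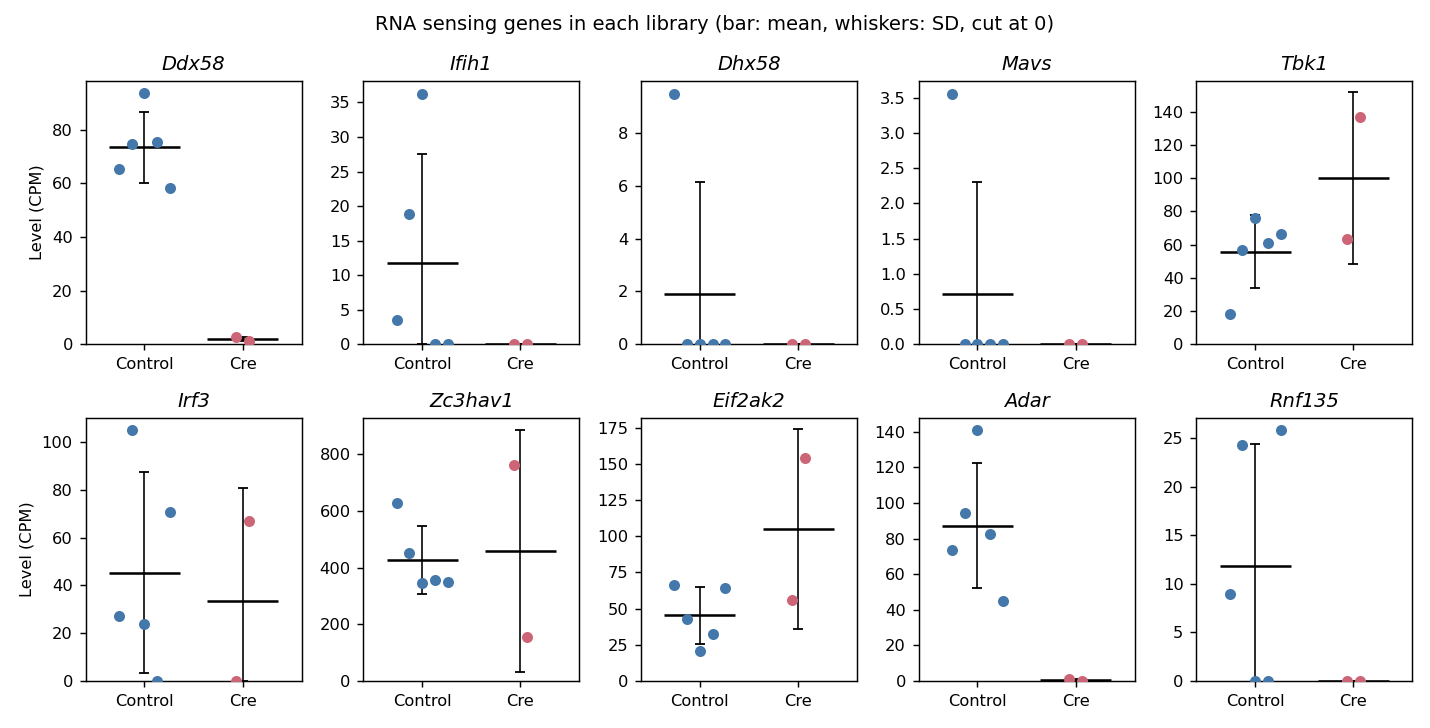
Level in CPM of each of the 10 genes in the 5 Control and 2 Cre libraries, 1 point a library, with the group mean as a bar and the SD as whiskers that are cut at 0. Each panel has its own linear axis from 0. Ddx58 and Adar are the genes whose Cre points both lie below all Control points, Ifih1, Dhx58, Mavs and Rnf135 are at 0 in Cre, and the Cre points of Irf3 and Zc3hav1 lie far apart.

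Levels of different genes were set in order per length, as CPM per kb of each gene's most counted region. In 3′ UTR libraries counts need not scale with that length, so the order depends on the scaling. Unscaled, the Control means of Irf3 (45.4 CPM) and Eif2ak2 (45.2 CPM) lay together. For Ddx58 the region used held 52.4% of the gene's counts over all libraries and none in Control replicate 2. In Control, Zc3hav1 stood highest at 438 ± 142, followed by Tbk1 at 56.4 ± 22.2, Irf3 at 48.7 ± 44.5, Adar at 34.5 ± 14.003 and Ddx58 at 31.2 ± 24.5 CPM per kb. Eif2ak2 at 14.9 ± 6.50, Rnf135 at 12.9 ± 13.8, Ifih1 at 4.97 ± 6.69, Dhx58 at 3.07 ± 6.87 and Mavs at 0.372 ± 0.833 CPM per kb came after them. Only Zc3hav1 stood apart from its neighbour by more than the sum of their SDs. Among the other 9, neighbours in this order did not differ beyond their spread. The adaptor and LGP2, each counted in 1 library, stood at the bottom of the order.

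The spread within Control is a description as well, since the Control values are part of the contrast known when the genes were chosen. The coefficient of variation (CV, the SD over the mean) of Ddx58 over the 5 Control libraries was 18.03%. Among 1872 tested genes with a Control mean within a factor of 1.5 the median CV was 55.8%, and 1.44% of them had a lower CV than Ddx58. Zc3hav1 had a CV of 28.4% (38.6% of genes of like mean lower), Tbk1 of 39.7% (15.1% lower), Adar of 40.3% (26.02% lower) and Eif2ak2 of 43.7% (15.4% lower). Irf3 varied more than most, with a CV of 92.5% (78.8% lower), as did Ifih1 at 134% (74.2% lower), while Rnf135 at 107% lay at the middle (50.6% lower). The 2 members that were not tested, Dhx58 and Mavs, had counts in 1 Control library each.

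**Figure D3:**
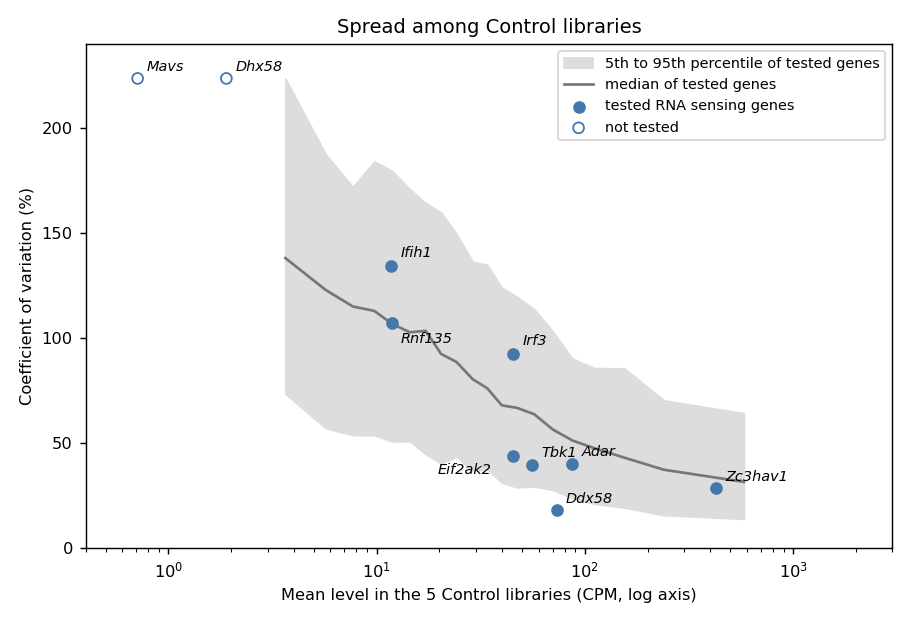
Coefficient of variation over the 5 Control libraries (percent) against the mean Control level (CPM, log axis), with filled points for the 8 tested and open points for the 2 untested members. The grey band and line give the 5th to 95th percentile and the median of the tested genes in 20 bins of level. Ddx58 lies under the band at 18.03%, and Irf3 and Ifih1 lie above the line.

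Over all 9854 tested genes, edgeR called 1 gene lower in Cre (0.0101%) and 0 higher (0%). Of the 10 members 8 passed the filter on low counts and 0 were called in either direction. At an unadjusted edgeR p under 0.05, 2 members were lower, Ddx58 and Adar, and 0 higher, where 10.2% of tested genes were lower and 1.41% higher. DESeq2 called the same 2 members as lower and 0 as higher. Of the 8394 genes to which it gave an adjusted p, it called 7.23% lower and 0.417% higher. In the authors' deposited table, which uses DESeq2, Ddx58 had a log2 fold change of −4.80 (FDR 4.1e-08) and Adar of −6.05 (FDR 1.72e-05), and no other member passed an FDR of 0.05, where 3.64% of genes with an FDR passed as lower. In an alternative added after seeing the data, DESeq2 called both genes with each library left out in turn, and Irf3 as well without Cre replicate 2. Neither edgeR with all libraries nor limma voom called them, and edgeR called Adar without Cre replicate 1.

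Both Cre libraries lay below every Control library for 2 of the 8 tested members, against 10.9% of tested genes, and above for 0 of 8, against 4.05%. Among genes of like Control mean the share below was 14.9% for Ddx58 and 14.8% for Adar. Of the 8 tested members 2 were at 0 in both Cre libraries, Ifih1 and Rnf135, against 13.7% of tested genes. The untested Dhx58 and Mavs were at 0 there too, and the share of 13.7% does not cover untested genes. Fitted values were lower in Cre for 5 of the 8 and higher for 3, where 60.1% of all tested genes were lower. Their median log2 fold change was −2.79, or −2.08 with genes at 0 in Cre placed at their limit, and that of all tested genes was −0.39. Because the genes were chosen with this contrast known, nothing is read from these counts.

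The genes most like Ddx58 over the 7 libraries, by Pearson's r of log2(CPM + 1) among 8390 tested protein-coding genes, were Phf6, Adar, Cab39l, Sf3a2 and Smg5, with r from 0.991 to 0.997. All points of such a correlation share the 2 low Cre libraries, so it describes the gap between the groups. Phf6, a chromatin protein, had 36.02 ± 3.25 CPM in Control against 3.45 CPM in Cre. Cab39l, the splicing factor Sf3a2 and the RNA decay factor Smg5 had 0 counts in both Cre libraries. For Mavs the same measure gave, among others, Ccnd2, Trim7, Nudt3 and Chfr, with r from 0.893 to 0.964, all of them highest in Control replicate 1, the library that holds every Mavs count.

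Around the members, 8 lists with 192 other genes of RNA sensing and its surroundings were examined, and 165 of these genes were tested. By edgeR over all genes 1 of the 165 passed as lower and 0 as higher. At an unadjusted p under 0.05, 13 were lower and 2 higher, and DESeq2 called 8 lower and 0 higher. These are 7.88% lower and 1.21% higher by unadjusted p, against 10.2% and 1.41% of all tested genes. By DESeq2 4.85% of the 165 were lower, against 7.23% of the 8394 genes with an adjusted p, so the denominators differ. At 0 in both Cre libraries were 7.88% of the 165, against 13.7%. Both Cre libraries lay below every Control library for 18 of the 165, where 10.9% of all tested genes did. They lay above for 4, where 4.05% of all tested genes did. None of these pooled shares was above that of all genes. Single lists can lie above, and their counts below are to be read against the same shares. Fitted values were lower in Cre for 103 and higher for 62, and the median log2 fold change was −0.24, against −0.39 over all tested genes. The lists were drawn up with earlier results of these libraries known.

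Among 28 tested regulators of RIG-I, MDA5 and MAVS, an unadjusted p under 0.05 marked 2 lower and 0 higher, and DESeq2 called 2 lower. By unadjusted p 7.14% were lower, against 10.2% of all tested genes. By DESeq2 it was 7.14%, against 7.23% of the genes with an adjusted p. Both Cre libraries lay below every Control library for 3 of the 28 and above for 0. The gene called by edgeR was Trim56, a ubiquitin ligase of antiviral signalling. It had 332 ± 83.1 CPM in Control against 3.11 ± 1.47 CPM in Cre (log2 fold change −6.67 ± 0.68, edgeR adjusted p = 0.00391, with 1.06e-19 to 0.783 over the alternatives). Limma voom, with and without library weights, was the one alternative that did not call it. Trim65, a ligase that activates MDA5, had 186, 80, 38, 14 and 297 counts in Control, against 4 and 3 in Cre. DESeq2 called it and edgeR did not (adjusted p = 0.367). The autophagy receptor Tax1bp1, a brake on MAVS signalling, had 161 ± 50.5 CPM in Control against 62.5 ± 55.2 CPM in Cre, below every Control library in both. Ndfip1, an adaptor of ubiquitin ligases, had 211 ± 46.7 and 398 ± 290 CPM, and its fitted value turned from 0.90 to −0.09 without Cre replicate 2. The list's median log2 fold change was −0.14.

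Of 24 tested adaptors, kinases and transcription factors downstream of MAVS, 0 passed edgeR, an unadjusted p under 0.05 marked 4 lower and 1 higher, and DESeq2 called 3 lower. These are 16.7% lower and 4.17% higher by unadjusted p, against 10.2% and 1.41% of all tested genes. By DESeq2 12.5% of the 24 were lower, against 7.23% of the genes with an adjusted p. IRF3 works with the coactivator Ep300 at its targets. Ep300 had 76, 80, 41, 121 and 59 counts in Control and 0 in both Cre libraries. With its Control mean taken as exact, the limit for 0 counts put Cre at least 52.0-fold lower. With 1 Control library left out at a time that value ran from 45.2-fold to 57.8-fold. The ubiquitin ligase Traf6 had 32, 85, 6, 0 and 130 counts in Control and 0 in Cre, so the groups overlap, and Traf2 was likewise at 0 in Cre and in 1 Control library. Ikbkb, the kinase that frees NF-kappaB, had 138 ± 15.8 CPM in Control against 287 ± 133 CPM in Cre, above every Control library in both (log2 fold change 1.05 ± 0.45, edgeR adjusted p = 0.427). Ikbkg, named after its values were seen, encodes the regulatory subunit of the same kinase complex. It had 64, 27, 40, 24 and 138 counts in Control, against 5 and 0 in Cre. Both Cre libraries lay below every Control library, and the gene was called by DESeq2 (adjusted p = 0.0319) and not by edgeR (adjusted p = 0.427). Irf7, also named after its values were seen, lay above every Control library in both Cre libraries (log2 fold change 1.20). In this list both Cre libraries lay below every Control library for 2 of the 24 genes and above for 2. The list's median was 0.10, above that of all tested genes.

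Other double-stranded RNA effectors and the eIF2 alpha axis gave 0 of 26 past edgeR, with 1 lower, 0 higher at an unadjusted p below 0.05 and 0 by DESeq2. Abce1, the inhibitor of RNase L, had 94, 137, 65, 346 and 264 counts in Control, against 38 and 0 in Cre, below every Control library. The stress granule protein G3bp1 had 178 ± 90.3 CPM in Control against 365 ± 100.02 CPM in Cre. Atf4, the transcription factor made when PKR or its relatives stop translation, had 286 ± 142 and 580 ± 140 CPM and lay above every Control library in both Cre libraries. Oas2, which makes the messenger that turns on RNase L, was at 0 in Cre and in 2 Control libraries. None of these 4 passed edgeR (adjusted p = 0.427 to 0.429). Ifit1 and Ifit2, named after their values were seen, had log2 fold changes of −2.15 and −2.76. For both, the 2 Cre libraries lay below every Control library. In this list that held for 4 of the 26 genes, and 1 lay above.

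Of 15 tested RNA helicases proposed as further sensors, 0 passed edgeR, an unadjusted p under 0.05 marked 1 lower and 0 higher, and DESeq2 called that gene, Dhx33. Dhx33 had 44, 87, 97, 19 and 0 counts in Control and 0 in Cre, and Ddx41 was at 0 in Cre and in 2 Control libraries. Ddx17, the most abundant of those named, had 817 ± 480 CPM in Control against 524 ± 343 CPM in Cre. Dhx29 rested on 216 counts in Cre replicate 1 against 0 in replicate 2.

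Genes that clear or mark self nucleic acid gave 0 of 22 past edgeR, with 2 lower, 1 higher at an unadjusted p below 0.05 and 1 lower by DESeq2. Xrn2, a nuclear exonuclease, had 35, 80, 194, 183 and 82 counts in Control, against 0 and 1 in Cre (edgeR adjusted p = 0.277). Exosc10, a nuclease of the nuclear exosome, had 92, 158, 86, 125 and 99 counts in Control, against 570 and 219 in Cre, above every Control library (log2 fold change 1.70 ± 0.58, edgeR adjusted p = 0.385). Rnaseh2a, of the enzyme that removes RNA from DNA hybrids, and Mettl3, which writes N6-methyladenosine, were at 0 in both Cre libraries, with Control means of 10.2 and 9.30 CPM. The list's median of −0.85 was the lowest of the 8, and 4 of its genes (18.2%, against 13.7% of all tested genes) were at 0 in both Cre libraries.

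The interferon receptor and its transcription factor had 0 of 11 past edgeR, 0 at an unadjusted p under 0.05 in either direction and 0 by DESeq2, with a median of 0.09. Stat2 had 49, 19, 59, 1 and 178 counts in Control, against 364 and 60 in Cre. Jak1 had 781 ± 238 and 557 ± 68.0 CPM, and Tyk2 had 61.2 ± 23.7 and 7.59 ± 10.7 CPM, below every Control library. Of 31 tested interferon-induced targets, 0 passed edgeR, an unadjusted p under 0.05 marked 3 lower and 0 higher, and DESeq2 called 1, Rsad2. Rsad2, which encodes viperin, had 19, 18, 90, 99 and 168 counts in Control and 0 in Cre. Herc6 had no count in Cre or in 1 of the Control libraries. Parp12 had 15, 7, 99, 12 and 25 counts in Control, against 0 and 1 in Cre, and Ifi27 had 170 ± 65.3 and 61.1 ± 54.3 CPM, with both Cre libraries below all Control libraries for each. Both Cre libraries lay below every Control library for 4 of the 31 genes and above for 0. Fitted values in this list were lower for 22 genes and higher for 9. The highest were those of Xaf1 and Mx1, named after their values were seen. The Control libraries held 1 to 25 counts of Xaf1, Cre replicate 1 held 277 and Cre replicate 2 none. For Mx1 the Control libraries held 0 to 18, and the Cre libraries 73 and 0. The list's median was −0.34, close to that of all tested genes.

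Endosomal and DNA sensors had 0 of 8 past edgeR, 0 at an unadjusted p under 0.05 in either direction and 0 by DESeq2. Ifi203 had 156 ± 62.6 CPM in Control against 74.1 ± 36.6 CPM in Cre, and the DNA sensor Aim2 had 214 ± 92.7 and 127 ± 50.6 CPM. The adaptor Myd88 had 128 and 1 counts in Cre, and the kinase Irak1 had 82.2 ± 26.7 CPM in Control against 154 ± 94.0 CPM in Cre. The RNA receptors Tlr3, Tlr7 and Tlr8 of the endosome had too few counts to be tested.

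**Figure D4:**
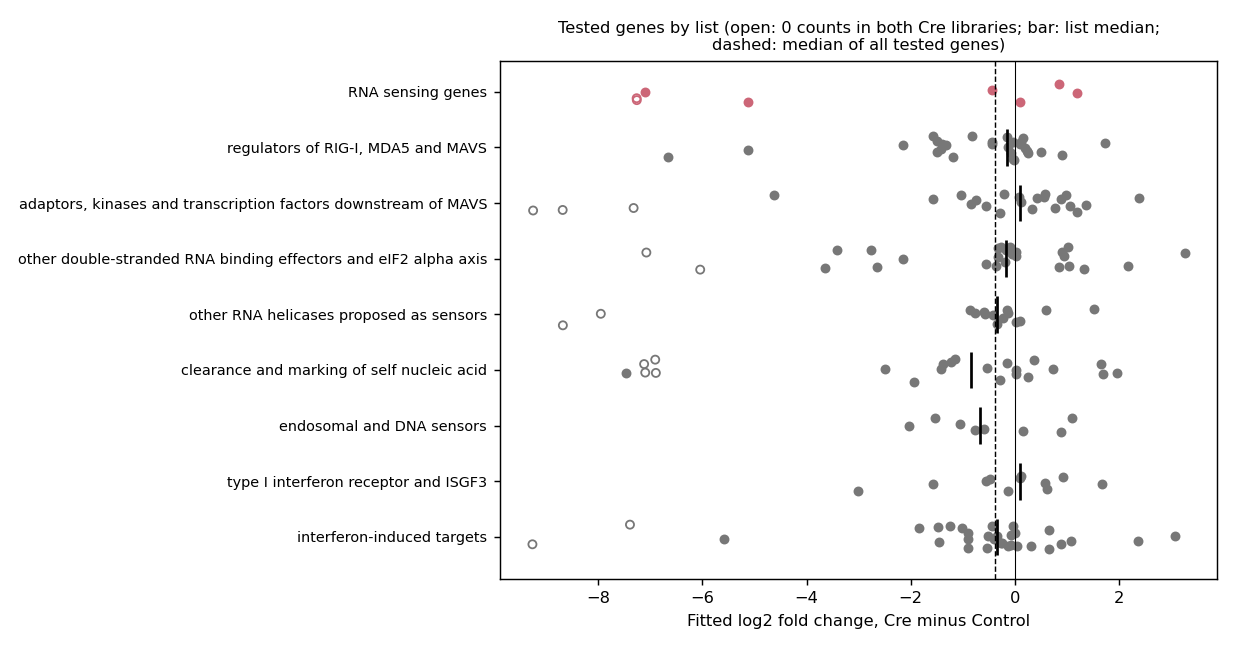
Fitted log2 fold change (Cre minus Control) of the 8 tested members and of the 165 tested genes in 8 lists, 1 point a gene, with open points for genes at 0 in both Cre libraries, a bar at the median of each of the 8 lists and a dashed line at the median of all tested genes (−0.39). The fitted value of an open point depends on the prior count and is no bound. Points far to the left occur in most lists, while most genes lie near the dashed line.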

How the data were processed

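The authors deposited raw counts per 3′ region for 116000 regions in 7 libraries, per the file headers. Per the labels' protocols, 3′ UTR libraries came from the NEB Next Ultra kit. HISAT2 2.1.0, FastQC 0.11.8, mm10 and DESeq2 stand in the submitters' processing notes. Which tool counted, whether by strand, and on which annotation is not given in the sources used here. A deposited comparison holds DESeq2 p-values and FDR, a fold as a ratio of normalized values and its log2, per the file headers. The GC percent in the deposited table was not used.

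Counts were summed per gene and libraries grouped by title. The main test was edgeR 4.0.16 (R 4.3.3), quasi-likelihood with TMM, robust dispersion, group as the only term and filterByExpr (minimum count 10, minimum total 15), over 9854 genes, with two-sided p-values adjusted by Benjamini-Hochberg at 0.05. The SE was taken from the F statistic. Alternatives were DESeq2 1.42.0, limma voom (limma 3.58.1) with and without library weights, other scaling (size factors or upper quartile), a stricter filter or none, leaving out 1 library at a time, a block for the replicate number and, added after seeing the data, 1 region a gene and DESeq2 with 1 library left out. With 1 Cre library, its spread is assumed to be that of Control. Regions were placed against GENCODE M21, which gave the same start and end as the deposited table for the 10 genes. Named genes were the 10 members, the up to 4 genes of smallest p and any called gene in each list, and the 5 genes most like Ddx58 and Mavs, of which a few are not reported here. Members and lists were chosen with earlier results of these data known. Protein sequences were not used here.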

Additional observations from a re-analysis of the deposited data

Results flagged for a closer look

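In 41 groups of 5 Control libraries, 1 for each member or named pathway gene, 4 held a library far from the others by Dixon's criterion. Chance alone meets it in about 1 of 20 groups for normally distributed values, a rate that need not hold for sparse counts. A gene counted in 1 of the 5 libraries, as Dhx58 and Mavs were, meets it whatever its count. The number flagged is therefore not read against a chance rate. Dhx58 had 9.49 CPM in Control replicate 1 and 0 in the other 4, and Mavs had 3.56 CPM in the same library and 0 in the other 4. G3bp1 had 338 CPM in Control replicate 3, with the nearest other library at 156 CPM. Parp12 had 60.9 CPM in Control replicate 3, with the nearest at 15.4 CPM.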

How the results depend on the processing

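With 2 Cre libraries, calls depend on the tool. Over all genes, 15 were called higher and 28 lower without a filter, 35 and 607 by DESeq2, 3 and 0 by limma voom, and 0 and 0 with library weights. The replicate number used as a block gave 0 higher and 5 lower genes and changed no call of a member. The titles number the libraries but no source pairs them, and deviations of same-numbered libraries correlated at 0.00302 and 0.00202. Among members, DESeq2 called 2 lower. Among other pathway genes, DESeq2 called 8 lower and both forms of voom 0 (Trim56 adjusted p = 0.22 and 0.783). Leaving out each library in turn gave 0 to 17 genes higher, 1 to 202 lower, 0 to 1 members lower and 1 to 7 pathway genes lower by edgeR, with the upper end in each case without Cre replicate 1, and 2 to 3 members lower by DESeq2. The fitted value of Dhx29 (1.53) turned to −0.37 with voom, to −0.13 with weights and ranged from −7.99 to 2.54 with 1 library left out. Ddx17 (−0.60) turned to 0.0828 with the block, and Ndfip1 ranged from −0.0875 to 1.52. The other pathway genes named by smallest p or by a call kept their sign under the alternatives. Ikbkg, Irf7, Ifit1, Ifit2, Xaf1 and Mx1, named after their values were seen, are not covered by that statement. Xaf1 and Mx1 had counts in Cre replicate 1 and 0 in Cre replicate 2. Under the stricter filter Ifih1 and Rnf135 were not tested. Promoter matches with 3 bases between the repeats occurred in 1 member, Ifih1. Zeros were common in Cre for the members under about 12 CPM, and the part of depth in them was not tested. Cre replicate 1 had the highest total count of all libraries.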
